A study of Mus musculus with 8 samples.

Results

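The loci of 8 genes for ETS transcription factors (Etv1, Etv4, Etv5, Elk1, Elk3, Elk4, Ets1 and Ets2) were examined for acetylation of lysine 27 of histone H3 (H3K27ac) in mouse embryonic stem cells. These factors were taken as a fixed list of ETS genes downstream of the MAP kinase ERK, out of 21883 protein-coding genes. Each locus was the RefSeq gene interval with 50 kb on either side, and the H3K27ac peaks overlapping it were used. Peaks of the 4 libraries that shared at least 1 bp were merged into union regions, of which 86 out of 82792 overlapped the 8 loci. All cells were of the E14tg2a line (129SV background) and stably carried cRAF-ErT2, in which the kinase cRAF is joined to a hormone-binding domain so that 4-hydroxytamoxifen (4OHT) activates it, and ERK below it. The tested cells received 250 nM 4OHT for 2 h, and the untreated cells received none. In both groups the cells had been grown with serum, LIF and 2 uM Chir99021 (a GSK3 inhibitor), and were moved 24 h earlier to serum and LIF with 250 nM PD173074, which inhibits FGF receptors. Clones a and b were profiled in each group, so n = 2 clones throughout. Each clone is a stable transfectant, no vehicle control is named, and ERK activity was not measured here, so an effect of 4OHT itself cannot be told apart from that of ERK.

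ETS factors share a DNA-binding domain that recognises a GGAA core. Elk1, Elk3 and Elk4 are ternary complex factors, which bind beside serum response factor at immediate-early genes and are phosphorylated by ERK. Etv1, Etv4 and Etv5 form the PEA3 subgroup, whose transcription depends on FGF and ERK signalling in many embryonic tissues, and Ets1 and Ets2 are activated through an ERK site near their Pointed domain. H3K27ac marks active promoters and enhancers.

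The lists held 59170 and 62764 peaks in 4OHT-treated clones a and b, against 61203 and 63276 in untreated clones a and b. Of these peaks, 77 and 86 lay at the 8 loci in treated cells and 66 and 67 in untreated cells. The depth of reads is unknown, and where a list has no peak the mark may still have been present. Marker genes of cell types were examined over the gene interval alone, without the 50 kb on either side. All 6 stem cell markers (Pou5f1, Sox2, Nanog, Esrrb, Klf4 and Zfp42) carried peaks in all 4 libraries, covering 71.9 and 68.8 kb in treated cells and 66.0 and 63.0 kb in untreated cells in sum. Esrrb alone held 52903 and 48587 bp of this in treated and 46843 and 43286 bp in untreated clones, whereas Nanog was shorter in both treated clones, with 2365 and 2381 bp against 3239 and 2829 bp in untreated ones. Klf4 was shorter within each clone, with 2476 and 4080 bp in treated clones a and b, against 2809 bp in untreated clone a and 4620 bp in untreated clone b. Primitive endoderm markers (Gata6, Gata4, Sox17, Sox7 and Pdgfra) summed to 0.407 and 0.870 kb in treated and 0 and 0.496 kb in untreated cells, and 0 of 5 carried peaks in all 4 libraries, Sox7 and Pdgfra being without a peak throughout. Fibroblast markers (Col1a1, Col1a2, Thy1, Twist1 and Postn) summed to 1.91 and 1.99 kb in treated and 0.657 and 0.711 kb in untreated cells; 1 of 5, Col1a1, had peaks in all 4 libraries, Col1a2, Thy1 and Postn had none, and Twist1 had 1138 and 1222 bp in the treated libraries and no peak in the untreated ones. Trophoblast markers (Cdx2, Eomes, Gata3 and Elf5) summed to 10.1 and 10.2 kb in treated and 7.07 and 6.41 kb in untreated cells; 2 of 4 had peaks in all 4 libraries, Elf5 had none within its gene interval, and Cdx2 had 1825 and 1798 bp in the treated libraries and no peak in the untreated ones. The part of these other marker genes in the results below was not tested.

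Acetylated length was uneven among the 8 loci. Per length of window it was greatest at Etv5, where peaks covered 22.8% and 20.2% of the window in the treated clones (a, then b) and 24.5% and 21.2% in the untreated ones. The order in untreated cells ran from Etv5 through Ets2 (7.65% and 7.49%), Elk1 (7.77% and 5.54%), Elk3 (5.21% and 4.24%), Etv1 (2.93% and 3.35%), Etv4 (1.82% and 3.13%) and Elk4 (1.79% and 1.78%) to Ets1, where no peak was listed. Ets2 and Elk1 overlapped in their values, as did Etv1 and Etv4, and the lowest Etv4 value lay just above those of Elk4. In treated cells Etv4 came next after Etv5, with 11.0% and 13.7% of its window covered.

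**Figure D1:**
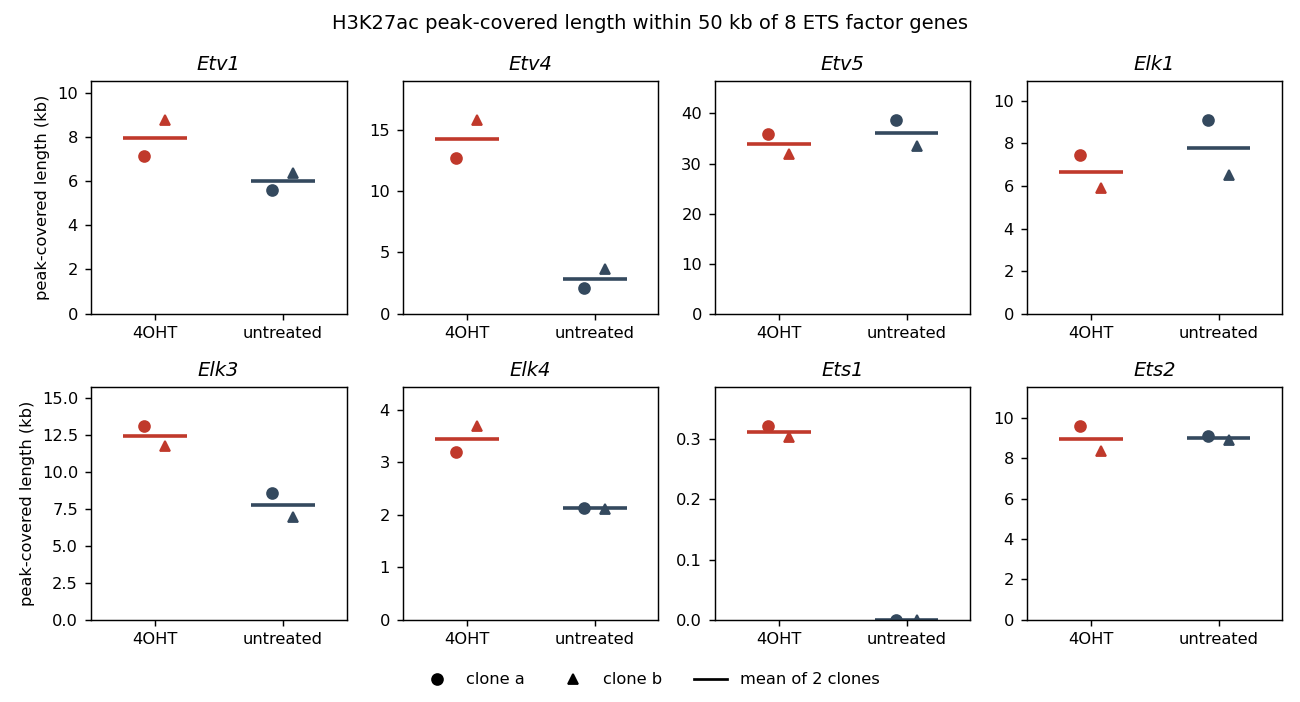
Kilobases covered by H3K27ac peaks within the gene interval and 50 kb on either side (y axis, from 0, scaled per gene) in 4OHT-treated cells and untreated cells; circles are clone a, triangles clone b and lines the mean of 2 clones. Treated values lie above both untreated values at Etv1, Etv4, Elk3, Elk4 and Ets1, and overlap them at Etv5, Elk1 and Ets2.

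Covered length around Etv4 was 12.7 and 15.8 kb in treated clones a and b, against 2.10 and 3.62 kb in untreated clones a and b. Both treated libraries lay far above both untreated ones. The mean of 14.3 ± 2.19 kb in treated cells compared with 2.86 ± 1.07 kb in untreated cells (SD, n = 2 clones), a log2 change of 2.17 ± 0.25 (SE) on log2(covered bp + 500), and the increase passed the threshold of 0.05 (limma over all loci, adjusted p = 0.0247). Leaving out treated clone a, treated clone b or untreated clone a gave changes of 2.32, 2.02 and 1.84 with limma adjusted p of 0.0644, 0.0578 and 0.0551. It was 0.0239 without untreated clone b, and 0.000147 with clone as a block. In the upper 50% of each list by score the limma adjusted p was 0.143, at a change of 3.05.

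Most of this length lay on the gene itself. Peaks covered 47.8% and 61.7% of the 15.6 kb Etv4 interval (chromosome 11, 101769747 to 101785310, mm10) in treated clones a and b, against 4.87% and 6.43% in untreated ones. The window held 14 union regions, of which 6 were gained, that is, called in both treated and in neither untreated library, and 0 lost, the opposite pattern. Of the gained regions, 3 overlapped the gene, at 101768230 to 101770802, 101772788 to 101774198 and 101776551 to 101779328. The last was the longest, at 2778 bp, with peaks covering 1726 and 2467 bp in treated clones a and b. By the authors' score its highest peak stood at the 69.8th and 73.3rd percentiles of these clones' lists. Another gained region lay 2.57 kb beyond the higher-coordinate end of the gene. Dhx8, which encodes an RNA helicase of splicing, was the gene nearest to the other gained pair, 12.5 and 0.254 kb away. The first of these straddled the outer edge of the window. The 6 gained regions became 2 in the upper 50% by score and 2 with peaks merged within 1000 bp.

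**Figure D2:**
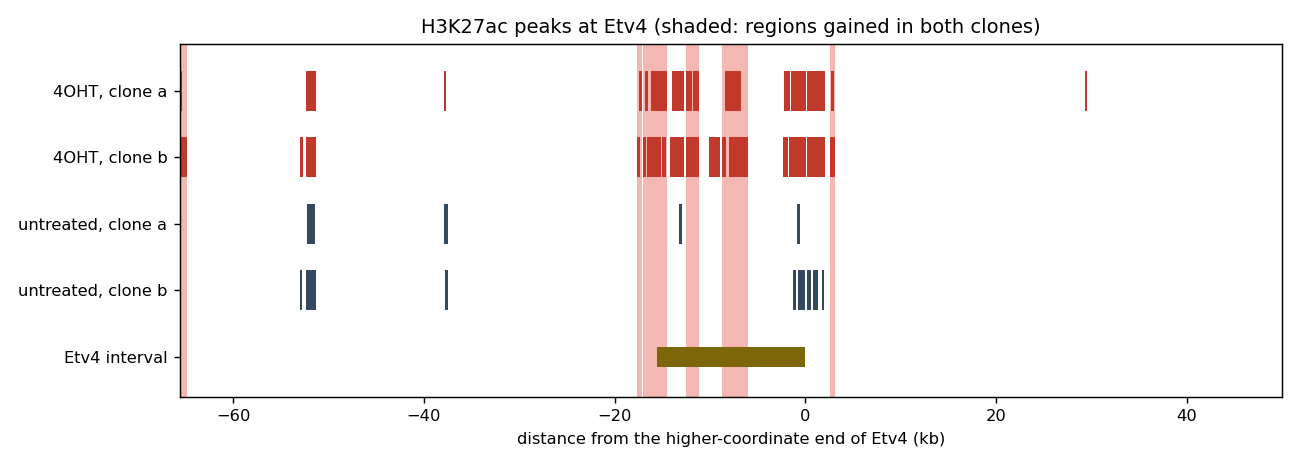
H3K27ac peaks by library (rows; treated clones above untreated clones) against distance in kb from the higher-coordinate end of Etv4, whose interval is the lower bar; shading marks the 6 gained regions. The treated libraries have peaks along much of the gene, where the untreated libraries have few and short ones.

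At the higher-coordinate end of Etv4 a peak was present before treatment and was longer after it. The region at 101782911 to 101785345 was called in all 4 libraries, with 2169 and 2327 bp covered in treated clones a and b, against 375 bp in untreated clone a and 1001 bp in untreated clone b. The next region, at 101785426 to 101787364, had 1904 and 1926 bp in treated clones and 1092 bp in untreated clone b, but no peak in untreated clone a. At this end untreated clone b held more acetylated length than untreated clone a, and both held less than the treated clones. The window of Dhx8 overlaps that of Etv4, so its covered length of 15.1 and 20.8 kb in treated and 5.87 and 6.98 kb in untreated cells (log2 change 1.40 ± 0.19 SE, limma adjusted p = 0.0275) is no separate result.

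The loci with the values most like those of Etv4, by Euclidean distance over log2(covered bp + 500) in the 4 libraries and more than 1 Mb away, were Bin3 (0.412), S100a3 (0.510) and Gsg1 (0.612). Bin3 had 10.6 and 13.1 kb in treated and 2.04 and 4.18 kb in untreated cells. This is a description over 4 libraries.

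Covered length around Etv1 was 7.12 and 8.77 kb in the treated clones (a, then b) and 5.58 and 6.38 kb in the untreated ones. The groups did not overlap, but the log2 change of 0.38 ± 0.16 (SE) did not pass (limma adjusted p = 0.197); with clone as a block the limma adjusted p was 0.0240. None of the 8 regions at Etv1 was gained or lost. The region over its start site (chromosome 12, 38778731 to 38782173) was called in all 4 libraries, with 3228 and 3443 bp in treated and 2970 and 2851 bp in untreated clones. Another region called in all 4, lying 48.1 kb upstream across the edge of the window, had 4689 and 4548 bp in treated and 4192 and 4288 bp in untreated clones. These lengths count the whole region from 38727005, whereas the window begins at 38730082. Inside the window the groups overlapped. Peaks there ended at 38731983 and 38731644 in treated clones a and b. In untreated clones a and b they ended at 38731561 and 38731584, each followed by a short further peak. Within the gene, 2 further regions were called in treated clone b alone.

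Etv5 carried a broad acetylated block whose extent overlapped between the groups. Its window had 36.0 and 32.0 kb covered in the treated clones (a, then b) and 38.7 and 33.5 kb in the untreated ones (log2 change -0.09 ± 0.12 SE, 95% interval -0.39 to 0.22, limma adjusted p = 0.696). Within each clone the treated value was the lower, by 2.74 kb in clone a and 1.52 kb in clone b. The core was a union region of 23275 bp inside the gene (chromosome 16, 22395755 to 22419029), covered over 22902 and 21941 bp in treated and 23201 and 21981 bp in untreated clones. The widest single peak in it was 22.5 and 21.2 kb in treated clones a and b and 23.2 kb in untreated clone a. In untreated clone b it was 13.3 kb, the core being split into several peaks there. The highest peak of the core stood at the 98.6th to 98.9th percentile of score in all 4 lists. The single lost region of the 8 loci lay beyond this core, at 22390451 to 22391196, with 574 bp in untreated clone a and 547 bp in untreated clone b; its score was at the 36.0th percentile of the list in clone a and at the 0.741st in clone b.

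The promoter windows of RefSeq (assembly GRCm38.p6, 250 bases before to 50 after a start site) held 6 of the 8 genes. Etv5, Elk1 and Elk3 are shown to compare where peaks lay around the start. Each is written 5′ to 3′ on the strand of the gene (minus for all 3), and capitals mark bases inside a peak in all 4 libraries.
Etv5 chr16:22439521-22439820: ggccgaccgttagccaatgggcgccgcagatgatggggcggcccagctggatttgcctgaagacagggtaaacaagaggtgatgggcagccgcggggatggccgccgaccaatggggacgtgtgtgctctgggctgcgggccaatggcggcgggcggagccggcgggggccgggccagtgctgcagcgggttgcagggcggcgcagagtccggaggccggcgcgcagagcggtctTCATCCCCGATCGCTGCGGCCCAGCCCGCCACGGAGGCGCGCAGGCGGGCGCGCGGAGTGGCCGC
Elk1 chrX:20950559-20950858: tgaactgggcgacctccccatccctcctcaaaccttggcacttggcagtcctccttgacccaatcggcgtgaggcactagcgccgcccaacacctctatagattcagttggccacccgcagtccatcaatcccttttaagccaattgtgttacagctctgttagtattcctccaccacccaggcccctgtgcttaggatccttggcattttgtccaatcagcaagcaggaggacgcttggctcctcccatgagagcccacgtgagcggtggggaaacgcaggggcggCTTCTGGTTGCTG
Elk3 chr10:93311110-93311409: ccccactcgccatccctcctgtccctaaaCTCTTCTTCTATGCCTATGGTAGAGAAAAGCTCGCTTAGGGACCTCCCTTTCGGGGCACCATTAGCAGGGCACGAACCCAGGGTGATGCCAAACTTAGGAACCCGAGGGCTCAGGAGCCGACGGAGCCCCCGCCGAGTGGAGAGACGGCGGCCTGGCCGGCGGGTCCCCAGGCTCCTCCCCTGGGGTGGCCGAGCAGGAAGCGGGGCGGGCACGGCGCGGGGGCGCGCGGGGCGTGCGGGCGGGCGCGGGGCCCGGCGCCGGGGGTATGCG
At Etv5 a peak on the gene side reached into the window in all 4 libraries, and another lay upstream of the window. Most bases before the start were in no peak. At Elk1 the peak on the gene side was called in all 4 libraries and that upstream in all but treated clone b. In the Etv5 window peaks covered 78 and 72 of the 300 bases in the treated libraries and 67 and 65 in the untreated ones, and in that of Elk1 they covered 31 and 13 bases in treated and 28 and 31 in untreated clones. The Elk3 window was covered over 300 and 300 bases in treated clones and 282 and 271 in untreated ones. Those of Etv1 and Elk4 were covered over all 300 bases in every library, and that of Ets2 in all but untreated clone a, where 224 bases were covered. Within 1 kb of the first start site, all 6 genes had a peak in every library, beside 47.1% of all genes with a promoter in the table. At 2 of the 6, Elk3 and Etv5, both treated libraries had more of these bases covered than both untreated ones, beside 36.2% of all starts with such peaks. Etv1 was covered throughout in every library and could not differ. The count depends on the start chosen. At the other starts listed for Elk4, treated clones had 2001 and 1915 bp against 1687 and 1619 bp, and 1826 and 1915 bp against 1444 and 1376 bp.

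Elk3 encodes Net, a ternary complex factor that represses its targets until ERK phosphorylates it. Its locus had 13.1 and 11.8 kb covered in treated clones a and b, against 8.53 and 6.94 kb in untreated ones. The groups did not overlap, and the mean was 12.4 ± 0.944 kb in treated and 7.73 ± 1.13 kb in untreated cells (SD, n = 2 clones). The log2 change of 0.66 ± 0.15 (SE) did not pass without a clone term (limma adjusted p = 0.0638). It passed with clone as a block (limma adjusted p = 0.00144), and also when lengths were scaled to each library's total covered length (limma adjusted p = 0.0470).

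The change at Elk3 was spread over many short regions, and the clones differed in where it lay. In clone a the gene held 9.07 kb treated against 4.78 kb untreated, and the upstream flank 3.23 against 3.18 kb. In clone b the gene held 5.52 against 4.23 kb, the upstream flank 4.40 against 2.03 kb and the downstream flank 1.83 against 0.675 kb. For the gene with 1 kb on either side the log2 change was 0.62 (limma adjusted p = 0.254). Of 27 union regions, 4 were gained and 0 lost, and 5 of the 8 called in all 4 libraries were longer in both treated clones than in either untreated clone. The region over its start site (chromosome 10, 93309865 to 93311663) was one of these. Within 1 kb of the start site printed above, peaks covered 1302 and 1301 bp in treated clones a and b, against 362 bp in untreated clone a and 555 bp in untreated clone b. Of the gained regions, 2 lay inside the gene, at 93277733 to 93278085 and 93279715 to 93280202, on either side of a region called in all 4 libraries. One lay 5.11 kb past the gene's end, inside Cdk17, which encodes a cyclin-dependent kinase, and the last crossed the edge of the window 49.97 kb upstream. The gained regions were 353 to 885 bp long. None of the 4 was gained in the upper 50% by score, in the top 20000 peaks or with peaks merged within 1000 bp, and 7 regions were gained when either treated clone was left out.

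**Figure D3:**
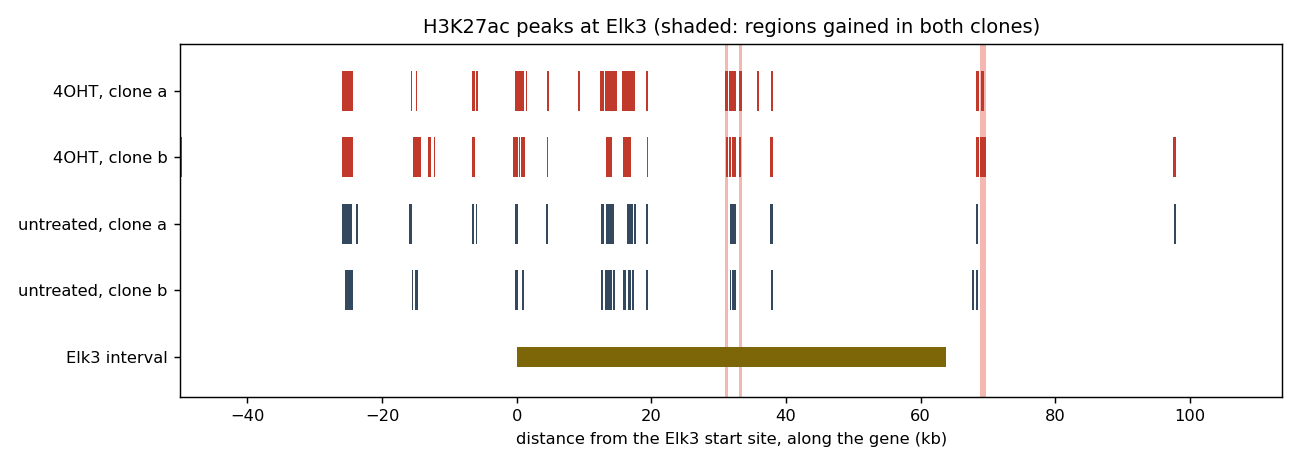
H3K27ac peaks by library (rows; treated clones above untreated clones) against distance in kb from the Elk3 start site along the gene, whose interval is the lower bar; shading marks gained regions, the 4th of which lies at the left edge. Treated peaks are longer over the start site, and most clusters of peaks are present in all 4 libraries.

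Elk4 (SAP-1) had little acetylation away from its start. Its locus had 3.19 and 3.69 kb covered in treated clones a and b, against 2.13 and 2.11 kb in untreated ones, without overlap. The log2 change was 0.58 ± 0.16 (SE), with a limma adjusted p of 0.0938 without and 0.0191 with clone as a block. The window held 2 regions. The one over the start (chromosome 1, 132006369 to 132009753) was called in every library, with 2787 and 3125 bp in treated and 2129 and 1739 bp in untreated clones. Its highest peak stood at the 98.6th and 97.8th percentiles of score in the treated lists and at the 91.0th and 94.9th in the untreated lists. The other, inside Slc45a3, had no peak in untreated clone a.

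The Elk4 promoter is shown as the only one of the 6 with CCGGAA, a high-affinity ETS site, on either strand in this window. The bare GGAA core was not searched for. It occurs, among others, in the Etv1 and Elk3 windows, so windows without CCGGAA are not without an ETS core. CCGGAA, in capitals, begins 68 bases before the first start site that the table lists.
Elk4 chr1:132007370-132007669, plus strand: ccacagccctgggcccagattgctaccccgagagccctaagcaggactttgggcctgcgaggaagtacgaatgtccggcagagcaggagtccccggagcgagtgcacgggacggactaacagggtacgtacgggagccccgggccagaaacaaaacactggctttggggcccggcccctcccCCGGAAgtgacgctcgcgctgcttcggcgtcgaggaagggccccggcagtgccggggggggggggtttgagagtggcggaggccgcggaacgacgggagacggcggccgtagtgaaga
The same letters occur in 19.1% of the first promoters of 17491 protein-coding genes. None of the 6 windows held the AP-1 letters TGANTCA (7.03% of all promoters), the CRE letters TGACGTCA (2.33%) or a CArG box, the site of serum response factor (1.56%), on either strand; no hits overlapped. The absence of these letters from 300 bases says nothing of the factors elsewhere. The GC content of the windows was 74.0% at Etv5, 71.7% at Ets2, 71.3% at Elk3, 68.3% at Elk4, 57.3% at Elk1 and 48.7% at Etv1, beside a median of 56.3% over all promoters.

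Around Elk1, the best known ternary complex factor, peaks covered 7.45 and 5.89 kb in the treated clones (a, then b) and 9.11 and 6.50 kb in the untreated ones. The groups overlapped, with a log2 change of -0.20 ± 0.21 (SE; 95% interval -0.73 to 0.32, limma adjusted p = 0.578). Of 8 regions, 6 were called in all 4 libraries and 0 were gained or lost. The longest lay at the far end of the gene (chromosome X, 20933314 to 20936577), with 3119 and 1837 bp in treated and 3245 and 2349 bp in untreated clones, so that here clone a exceeded clone b in both groups. Syn1, Cfp and Uxt lie in the same window, and 6 of the 8 regions were nearest to one of them.

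Ets2 had 9.60 and 8.34 kb covered in the treated clones (a, then b) and 9.08 and 8.89 kb in the untreated ones. The groups overlapped (log2 change -0.01 ± 0.13 SE, 95% interval -0.33 to 0.32, limma adjusted p = 0.986). Its longest region lay 44.0 kb beyond the gene (chromosome 16, 95765009 to 95770069), with 4883 and 4395 bp in treated and 5061 and 4899 bp in untreated clones, and that over its start had 1285 and 1380 bp in treated and 1128 and 1576 bp in untreated clones. Ets1 had a single region, inside the gene at 32696070 to 32696399 on chromosome 9. It was gained, with 322 and 303 bp in treated clones a and b and no peak in untreated ones. Its peaks were weak, at the 7.42nd and 34.8th percentiles of score in the treated lists. With a mean below 1000 bp, Ets1 was not fitted.

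Of the 7 loci fitted, 1 (Etv4) was called longer, beside 4.00% of all 16045 loci, and 0 were called shorter, beside 2.87%. At an unadjusted limma p under 0.05, 3 were longer (Etv4, Elk3 and Elk4), beside 17.0% of all loci, and 0 shorter, beside 10.8%. With clone as a block 4 were called longer (Etv4, Elk3, Elk4 and Etv1) and 0 shorter, beside 22.7% and 15.5% of all loci. Both treated libraries exceeded both untreated ones at 4 of the 7, beside 37.1% of all loci, and fell below them at 0, beside 21.7%. The median log2 change of the 7 was 0.38, beside 0.08 for all loci. Windows of neighbouring genes share peaks, so loci are not independent.

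**Figure D4:**
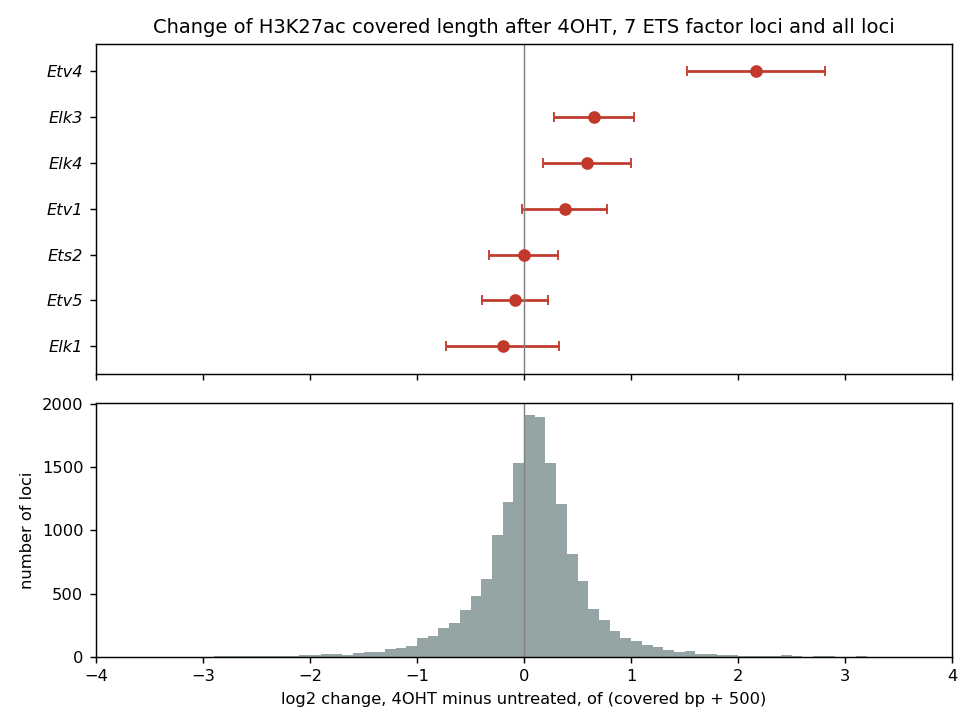
Upper panel, log2 change of (covered bp + 500), 4OHT minus untreated, with 95% intervals from limma for the 7 ETS factor loci fitted; lower panel, number of loci by log2 change over all 16045 loci. Etv4, at 2.17, lies in the upper tail, whereas Etv5, Elk1 and Ets2 lie near 0 and Elk3, Elk4 and Etv1 between 0.38 and 0.66.

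Over the 86 regions of the 8 loci, 11 (12.8%) were gained, beside 6.20% of all union regions, and 1 (1.16%) was lost, beside 6.26%. The gained regions came from 3 loci, 6 at Etv4, 4 at Elk3 and 1 at Ets1, and 8 of the 11 were nearest to the ETS gene itself. They ranged from 330 to 2778 bp. Their median score percentile was 33.7 in treated clone a and 34.8 in treated clone b. Within clone a 19 regions appeared and 7 disappeared with treatment, beside 16.1% and 18.0% of all union regions, and within clone b 24 appeared and 10 disappeared, beside 18.8% and 17.9%. A further 33 regions (38.4%, beside 36.4% of all) were called in every library. Of these, 13 (39.4%) were longer in both treated clones than in either untreated clone, beside 27.3% of all such regions, and 3 (9.09%) were shorter, beside 21.5%. Such lengths count whole regions, also where a region crosses the edge of a window, as at Etv1. Merging peaks within 1000 bp left 3 gained regions, the upper 50% by score 2 and the top 20000 peaks 4, whereas leaving out treated clone a gave 18. The lost regions numbered 0 in the upper 50% by score, 2 in the top 20000 peaks, 7 when treated clone a was left out, 4 when untreated clone a was and 6 when untreated clone b was.

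**Figure D5:**
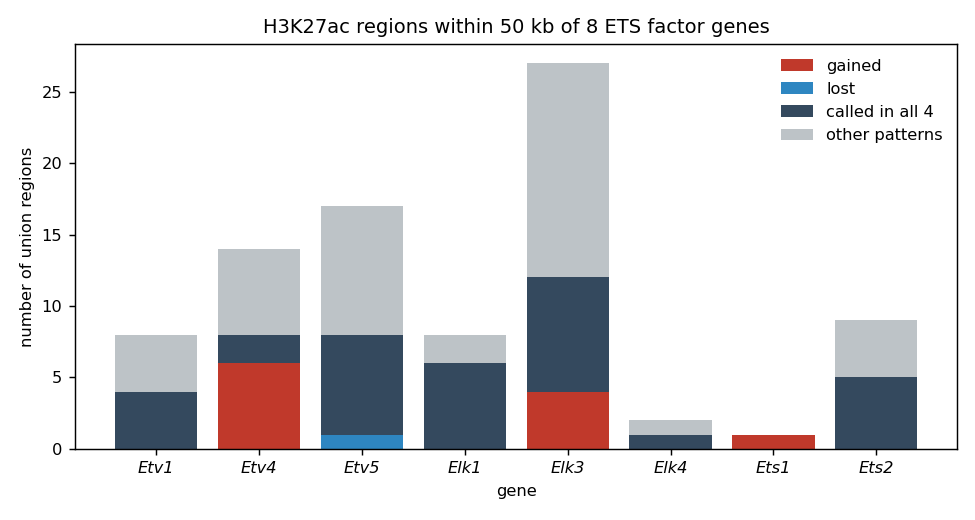
Number of H3K27ac union regions (y axis) within the window of each gene (x axis), divided into gained, lost, called in all 4 libraries and other patterns. Elk3 has the most regions, 27, and Etv4 the most gained, 6 of 14.

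Among 18 other genes of the ETS family, 16 were fitted, and limma called 2 longer and 2 shorter, beside 4.00% and 2.87% of all loci. With clone as a block it called 3 and 4, beside 22.7% and 15.5%. Both treated libraries exceeded both untreated ones at 3 of the 16, beside 37.1% of all loci, and fell below them at 7, beside 21.7%. Etv6, a repressor, had 17.8 and 22.2 kb in treated and 6.87 and 6.57 kb in untreated clones (log2 change 1.50 ± 0.15 SE, limma adjusted p = 0.0240). Gabpa, a subunit of a regulator of housekeeping genes, had 15.4 and 13.5 kb in treated and 6.94 and 5.29 kb in untreated clones (1.19 ± 0.17, 0.0299). Elf3, an epithelial factor, had 6.08 and 5.66 kb in treated and 13.95 and 12.4 kb in untreated clones (-1.10 ± 0.13, 0.0247). Spic, known from macrophages of the spleen, had 8.12 and 9.86 kb in treated and 15.6 and 15.5 kb in untreated clones (-0.76 ± 0.14, 0.0415). The median log2 change of these 16 loci was -0.18, beside 0.08 for all loci.

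Of 28 genes of ERK feedback and response, which include known ETS targets, 27 were fitted, and limma called 9 longer and 0 shorter, beside 4.00% and 2.87% of all loci. At an unadjusted limma p under 0.05 there were 12 longer and 0 shorter, beside 17.0% and 10.8%, and with clone as a block 15 and 1, beside 22.7% and 15.5%. Their median log2 change was 0.27, beside 0.08 for all loci. This list, like that of the other ETS genes, was chosen with earlier results of these data known. Its counts and median are therefore a description and no test of the list. The largest changes were at Egr3 (2.20), Spry4 (2.04), Phlda1 (1.72), Fosl2 (1.67), Spred1 (1.56) and Dusp5 (1.28). Others lay near 0, among them Spry1 (-0.07), Dusp6 (-0.05), Fos (-0.07), Junb (-0.05) and Ier2 (-0.05). The largest decreases, at Dusp7 (-0.50) and Dusp9 (-0.41), did not pass (limma adjusted p = 0.268 and 0.615). Epha2 was the locus called shorter with clone as a block (-0.23, limma adjusted p = 0.00966). Both treated libraries exceeded both untreated ones at 13 of the 27, beside 37.1% of all loci, and fell below them at 4, beside 21.7%. Etv4 changed by a similar amount to Egr3 and Spry4, all being compared in the same libraries. Srf, the DNA-binding partner of Elk1, Elk3 and Elk4, had 4.29 and 4.59 kb in treated and 2.86 and 3.09 kb in untreated clones (log2 change 0.51 ± 0.14 SE); its limma adjusted p was 0.0958, and 0.0182 with clone as a block. It was singled out after its values were seen.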

How the data were processed

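H3K27ac chromatin immunoprecipitation libraries of 2 treated and 2 untreated clones were analysed; the 4 input libraries were left aside. Bowtie2, bedtools, MACS2 and build mm10 are named per the submitters' processing notes; for versions, thresholds and any use of inputs, the sources used here give nothing. The authors deposited 1 peak list per library, with a score for each peak whose scale is unstated; it was used only to rank peaks within a list. Without read counts the depth cannot be known.

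Gene intervals, start sites and promoter sequences came from RefSeq for GRCm38.p6, the assembly that mm10 is built on. Etv4 and Ets1 are described by the ends of their intervals. Bases covered by peaks were summed per locus and library. Loci with a mean of at least 1000 bp were fitted with limma 3.58.1 (R 4.3.3) on log2(covered bp + 500), with a mean-dependent prior variance, Benjamini-Hochberg adjustment over 16045 loci at 0.05 and no clone term. The procedure was tested on simulated data. The clone letters pair the treatments by label; clone deviations correlated at 0.611 over loci between treatments. Without a clone term p-values set the change against the spread between 2 clones within groups, moderated by a prior variance from all loci. That prior had 3.32 degrees of freedom. The spread includes clone differences that both treatments share. Changes on this scale understate those of short lengths.

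Members, gene lists and named genes (members, listed genes past the threshold, nearest genes of changed regions, and the loci most like the member with the largest change) were chosen with earlier results of these data known. Alternatives covered score filters, pseudocounts, windows, merging, scaling, the length filter, the prior, the clone block and each library left out.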

Additional observations from a re-analysis of the deposited data

Results flagged for a closer look

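Covered length at Ets2 changed in opposite directions in the 2 clones, by 0.522 kb in clone a and by -0.548 kb in clone b (4OHT minus untreated). The difference between the clones was not tested, since each clone has 1 library per treatment.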

How the results depend on the processing

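The single locus called longer (Etv4) became 0 in the upper 50% by score and in the top 20000 peaks, 2 with scaling to total covered length (Etv4 and Elk3) and 4 with clone as a replicate block. Leaving out each library in turn gave 0 to 1. The count of loci called shorter was 0 under all 15 alternatives. Etv4 kept its direction in all of them (log2 change 1.00 to 3.26, limma adjusted p 0.000147 to 0.143), as did Elk3 (0.52 to 0.80, 0.00144 to 0.482), Elk4 (0.25 to 0.68, 0.0191 to 0.355) and Etv1 (0.24 to 0.52, 0.0240 to 0.573). With a library left out, the log2 change ran from -0.189 to 0.0181 at Etv5, from -0.430 to 0.0276 at Elk1 and from -0.101 to 0.0911 at Ets2, so that all 3 turned in sign. Elk1 also turned in the top 20000 peaks (0.0309) and Ets2 with scaling (0.0111), and none of these values passed. Gained regions numbered 2 in the upper 50% by score, 4 in the top 20000 peaks, 3 when merged within 1000 bp, and 15 to 18 with a library left out. Lost regions numbered 0 in the upper 50% by score, 2 in the top 20000 peaks, 2 with windows of 100 kb, and 1 to 7 with a library left out. Shorter lists hold fewer peaks, and a region gained in them can still have a low-scoring peak in untreated cells. With a library left out, the definition of gained and lost asks for fewer libraries, so these counts could only stay or rise. Wider windows likewise could only add regions. The cause of the other differences was not tested. Over all loci the 642 longer and 461 shorter became 3637 and 2485 with the clone block, 391 and 277 with windows of 10 kb, 199 and 117 for the gene with 1 kb, 179 and 139 in the upper 50% by score, 0 and 0 in the top 20000 peaks (2881 at unadjusted limma p under 0.05), and 0 to 405 longer and 0 to 162 shorter with a library left out. Where a library was left out, the lone library of its group was assumed to vary like the others.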
